A study of Mus musculus with 18 samples.

Results

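Of 7870 cytosine positions listed as carrying RNA 5-methylcytosine (m5C) in wild type or Tet2 KO mouse embryonic stem cells, 888 were listed in both genotypes with a mean level under 0.4 in each. These low, shared positions are described here. They were chosen by matching the tables of the 2 genotypes on chromosome, position and strand and averaging the 2 replicate levels per genotype, so their levels and the differences between genotypes are a description and carry no test. The level is the fraction of reads at a cytosine that stayed a cytosine after bisulfite treatment. In wild type 4128 positions were listed, in Tet2 KO 4781, and 1039 were in both tables. Of the shared positions outside the selection, 96 had a mean of at least 0.4 in both genotypes and 55 in 1 genotype.

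The study grew wild type and Tet2 KO mouse embryonic stem cells with LIF on mouse embryonic fibroblast feeders. Bisulfite sequencing of RNA gave 2 replicates for each genotype, without actinomycin D treatment being named for them. For RNA sequencing, cells of either genotype were exposed to the transcription blocker actinomycin D (5 µg/ml) for 0, 3 or 6 h, and each combination gave 1 library. The labels name neither the part of Tet2 that was removed nor the number of clones, and 8 m5C immunoprecipitation and input samples were not analysed here.

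m5C is a methyl mark on the base cytosine. In messenger RNA it is written mainly by NSUN2 and NSUN6, enzymes of the NOL1/NOP2/SUN family, and in transfer RNA also by DNMT2. ALYREF, an RNA export adaptor, and YBX1, a cold shock domain protein, can bind the mark. TET2 is a dioxygenase that oxidises 5-methylcytosine in DNA and can act on RNA.

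Sequence could be read for 13 of the 888 positions, those inside a RefSeq promoter window of GRCm38.p6 that runs from 250 bases before to 50 bases after a gene start. The reference base on the listed strand was C at 13 of 13, and at 144 of 144 listed positions of any kind in such windows. The examples below other than Prr14 are shown because they hold C-rich and G-rich surroundings, the motif named next, or the widest genotype gaps among the 13. Prr14 had the lowest GC content of the 13, 53.8%, and is shown beside them. The examples run 5′ to 3′ on the strand of the position, with the listed cytosine in capitals.
Ranbp9, chr13:43480975-43481003, minus strand: cagcgacagcgcccCcgggaagcgcagga
Pex13, chr11:23665777-23665805, minus strand: tctcgcagaattccCggggccggccccgg
Cdv3, chr9:103365076-103365104, minus strand: aggtccggagacggCgggagcgcgggccc
Adipor1, chr1:134415538-134415566, plus strand: atgtagcgcccgggCccgcggcccccagc
Elmo2, chr2:165316310-165316338, minus strand: gaagaagggcccgcCgggaacaatgccgc
Ei24, chr9:36797285-36797312, minus strand: tccgagcgcccgggCggagcgggcagcc
Prr14, chr7:127471638-127471663, plus strand: gcatctaacagggaCaaaggtcccag

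The cytosines shown had genotype means under 0.4, as the rule required. At Ranbp9, a gene for a scaffold protein that binds the GTPase Ran, levels were 0.125 and 0.229 in the wild type libraries against 0.263 and 0.409 for Tet2 KO, so the genotypes did not overlap. At Cdv3 the order was the other way, with 0.385 and 0.281 in wild type, next to 0.25 and 0.237 in Tet2 KO. Pex13, which encodes a peroxisomal import protein and whose position falls in the window of the neighbouring gene Pus10, had 0.156 and 0.102 against 0.169 and 0.197. Adipor1, an adiponectin receptor gene, had 0.119 and 0.117 against 0.12 and 0.14. The levels of Elmo2, Ei24 and Prr14 overlapped between genotypes.

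The motif CNGGG, with the listed cytosine as its first base, stood at 2 of 12 of these positions whose window held 5 bases, Ranbp9 and Pex13. It stood at 14 of 135 of all listed positions in windows (10.4%) and at 2.94% of all cytosines of the windows, both strands counted, and 92.3% of windows held it somewhere. The motif CTCCA stood at 0 of 12, at 0 of 135 and at 0.674% of window cytosines. A G followed the cytosine at 6 of 12 and at 74 of 135 (54.8%), against 15.4% of window cytosines. The median GC content of the stretch of up to 29 bases was 82.8%, the same median as for the 144 listed positions, and the windows as a whole held 53.8%. These few positions lie at gene starts and do not stand for the other 875. None of the 888 fell in the 1005 miRNA hairpins of RefSeq.

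Beside these levels, Tet2 RNA was measured in all 6 RNA libraries as RPKM, a read count scaled for gene length and library total, with 23.7 in wild type and 23.0 in Tet2 KO at 0 h, 17.9 and 11.2 at 3 h, and 12.5 and 10.1 at 6 h. RNA of Tet2 was thus present in the libraries labelled Tet2 KO, and directions between genotypes rest on the labels. Markers of embryonic stem cells were present, with 11 of 14 listed genes in the table and a summed level between 935 and 1284 RPKM per library. Single markers of this list differed between genotypes in both directions. At 0 h Zfp42 had 120 RPKM in wild type against 30.6 in Tet2 KO, and Lin28a had 35.9 against 58.1. Feeder fibroblast markers were present too, with 10 of 15 genes and a sum between 666 and 1030 RPKM. Vim and Fn1 were the highest of them in each library, with 305 and 194 RPKM in wild type at 0 h. In the same library Pdgfrb had 2.69 and Dcn 2.95. The part of feeder cells in any difference below was not tested, and fewer cells of a type cannot be told apart from less RNA per cell. The tables give no coverage, so the depth behind each level is unknown.

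Levels of the 888 positions lay mostly in the lower part of the range between 0.1, the lowest level listed in either table, and 0.4. The median was 0.186 and 0.179 in the wild type libraries and 0.185 and 0.182 in the Tet2 KO libraries. As genotype means, the median was 0.186 in wild type and 0.188 in Tet2 KO, and the highest means were 0.394 and 0.398. The highest of the 4 levels was 0.4 or more at 96 of the positions. At the other end, all 4 levels were under 0.15 at 64 positions. At 64 others all 4 were at least 0.25.

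The median difference, Tet2 KO minus wild type, was 0.0005 over the 888 positions, and single differences ran from -0.215 to 0.238. Tet2 KO was higher at 445 positions and lower at 440, with 3 equal. The median size of the difference between genotype means, whatever its sign, was 0.0353. Between single libraries, the median gap was 0.046 for the wild type replicates and 0.0425 for the Tet2 KO replicates, and it ran from 0.045 to 0.05 over the 4 pairs of a Tet2 KO with a wild type library. For 589 positions the replicate levels of the genotypes overlapped. Both Tet2 KO levels lay above both wild type levels at 162 positions (18.2%) and below them at 137 (15.4%). Over all 1039 shared positions the shares were 19.4% above and 15.5% below, and nothing is read from the closeness of these shares, because the same levels chose the positions. Differences of at least 0.1 were seen at 109 positions (12.3%), and all 4 levels lay within 0.05 of each other at 159.

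**Figure D1:**
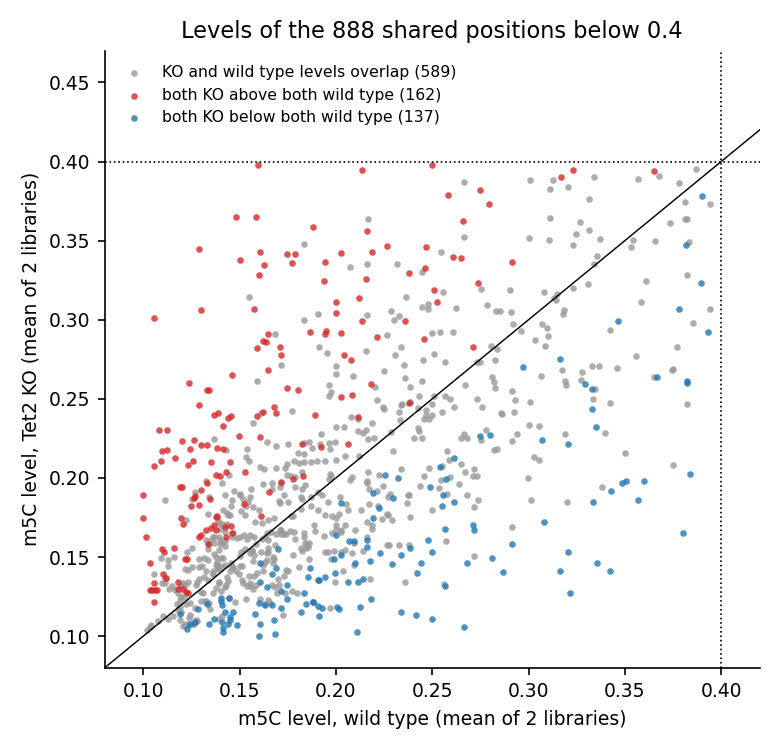
Mean m5C level of each of the 888 positions in wild type (x axis) and Tet2 KO (y axis), as fractions and means of 2 libraries. The solid line marks equality and dotted lines the 0.4 limit. The 162 positions with both Tet2 KO levels above wild type and the 137 below it lie on either side of 589 that overlap.

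Levels of single libraries ranked the positions alike to a moderate degree. Spearman's rho over the 888 positions was 0.46 between wild type replicates and 0.48 between Tet2 KO replicates, and between 0.40 and 0.47 for libraries of different genotypes. For the genotype means it was 0.59. These values describe positions that share libraries and a range of levels bounded at both ends by the listing and by the selection.

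Rps24, a protein of the small ribosomal subunit, had the largest gap above wild type, at position 24493560 of chromosome 14 on the plus strand. Its levels were 0.176 and 0.143 in wild type, and 0.389 and 0.406 in the Tet2 KO libraries. A second Rps24 position on the same strand, 24495371, had 0.333 and 0.133 against 0.364 and 0.12 and did not separate the genotypes. Reads of ribosomal protein genes can be shared with pseudogene copies, and how reads of several places were treated is not given in the sources used here.

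Spag9, a scaffold of JNK signalling, had 0.15 and 0.167 in the wild type libraries against 0.412 and 0.318 for Tet2 KO. Zzef1 had 0.125 and 0.133 against 0.3 and 0.389. Map4, a microtubule-binding protein, had 0.1 and 0.2 against 0.409 and 0.267. In each of these genes the lowest Tet2 KO level stood above the highest wild type level by a margin wider than the wild type replicates were apart, except at Map4, where the margin was narrower.

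Nt5c3b, a cytosolic nucleotidase, had 0.1 and 0.111 against 0.364 and 0.238. Etv4, an ETS transcription factor, had 0.167 and 0.154 against 0.385 and 0.3. Rab7, a GTPase of late endosomes, had 0.2 and 0.125 against 0.4 and 0.269. The other 3 of the 10 largest lay in a RIKEN clone gene, in the pseudogene Impdh2-ps, and within the span of Mdm4 on the opposite strand, where a pseudogene model is also annotated. The Mdm4 position is therefore not ascribed to Mdm4 RNA.

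The largest gaps below wild type included Cipc, a repressor of the circadian CLOCK protein, with 0.375 and 0.385 in wild type, next to 0.188 and 0.143 in Tet2 KO at position 86962252 of chromosome 12. E2f5, a cell cycle transcription factor, had 0.3 and 0.385 against 0.1 and 0.182. Idh3b, a subunit of mitochondrial isocitrate dehydrogenase, had 0.4 and 0.368 against 0.238 and 0.167. At these 3 genes the wild type levels lay between 0.3 and 0.4 and the Tet2 KO levels between 0.1 and 0.238.

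Sae1, a subunit of the SUMO-activating enzyme, had 0.269 and 0.364 against 0.13 and 0.152. Ephb3, an ephrin receptor, had 0.333 and 0.381 against 0.182 and 0.19. Nol6, a nucleolar protein of ribosome assembly, had 0.333 and 0.308 against 0.174 and 0.133. Mettl1, which puts 7-methylguanosine into transfer RNA, had 0.333 and 0.2 against 0.1 and 0.111. Phf23, Mlx and Spg7, which encodes a mitochondrial protease, completed the 10 with means from 0.322 to 0.36 in wild type and from 0.127 to 0.198 in Tet2 KO. At Spg7 the wild type replicates themselves were 0.429 and 0.214, farther apart than any Tet2 KO level was from the lower of them.

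**Figure D2:**
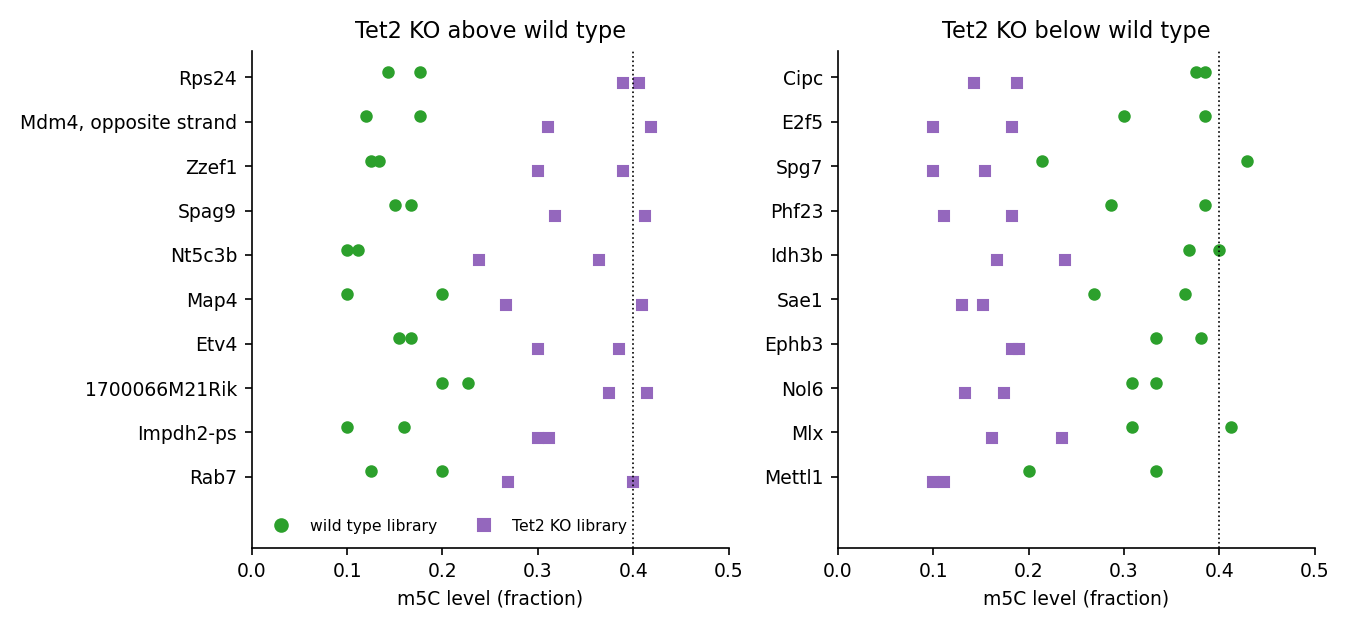
m5C level (x axis, fraction) in each library for the 10 positions with the largest gap above wild type (left) and the 10 with the largest gap below (right), named by gene. Circles are wild type libraries, squares Tet2 KO libraries, and the dotted line is 0.4. The positions were picked for these gaps, from Rps24 at 0.238 to Cipc at -0.215.

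Positions next to the limit show how the selection cut. Just inside it were Mark2, with genotype means of 0.25 and 0.398, Nme4 with 0.387 and 0.395, and Atp6v0a1 with 0.323 and 0.395, besides Rps24 and the RIKEN clone gene. Just outside were Ndufa3 with 0.403 and 0.275, Hnrnpl with 0.363 and 0.406, Dph2 with 0.406 and 0.322, Wdr48 with 0.343 and 0.407, and Zfp444 with 0.409 and 0.3. In the genotype nearer to the limit, replicates differed by more than these distances from it, as at Hnrnpl, where Tet2 KO gave 0.312 and 0.5.

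Some positions combined a level close to 0.4 with close replicates, and these were picked after their values were seen. Chchd10, a mitochondrial protein gene, had 0.397, 0.383, 0.376 and 0.38 in the 2 wild type and 2 Tet2 KO libraries. Stk11, the tumour suppressor kinase LKB1, had 0.378, 0.385, 0.352 and 0.342. Hdgf, a growth factor gene, had 0.36, 0.37, 0.405 and 0.383. The 4 levels of Chchd10 spanned less than the gap between replicates that was typical of the 888.

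Whether a position was listed in both genotypes went with its level. Of wild type positions with a mean between 0.1 and 0.125, 6.98% (95% exact binomial interval 5.62 to 8.56%) were also in the Tet2 KO table. The share was 25.2% at 0.15 to 0.2, 64.5% at 0.25 to 0.3 and 76.7% (69.0 to 83.3%) at 0.4 and over. For the Tet2 KO table the same shares were 6.80%, 21.9%, 48.4% and 62.8%. Positions of only 1 genotype had lower levels than the 888, with a median genotype mean of 0.134 in wild type and 0.140 in Tet2 KO. Intervals count positions and do not hold the error of a level. A position absent from a table may be below 0.1 or uncovered, and which of these holds was not tested.

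Sharing also went with the RNA level of the gene. Of wild type positions in genes under 5 RPKM, as the mean of the 6 libraries, 10.9% (9.06 to 13.0%) were among the 888. The share was 19.0% at 5 to 20, 31.1% at 20 to 100 and 47.9% (41.7 to 54.1%) at 100 RPKM and over. The Tet2 KO table gave 10.2%, 16.3%, 26.7% and 39.7%. Among the 759 positions with a matched gene, the median gap between replicates went from 0.067 (wild type) and 0.063 (Tet2 KO) under 5 RPKM to 0.037 and 0.025 at 100 RPKM and over. The median size of the genotype difference was 0.0425 in the first class and 0.029 in the last. The share of positions whose genotypes did not overlap was 29.4%, 39.1%, 25.3% and 43.2% from the lowest to the highest class. Over all shared positions, 19.4% lay above and 15.5% below. That share thus did not fall steadily with RNA level, and it was not tested. Coverage per position would be needed to separate level from precision, and its part was not tested.

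**Figure D3:**
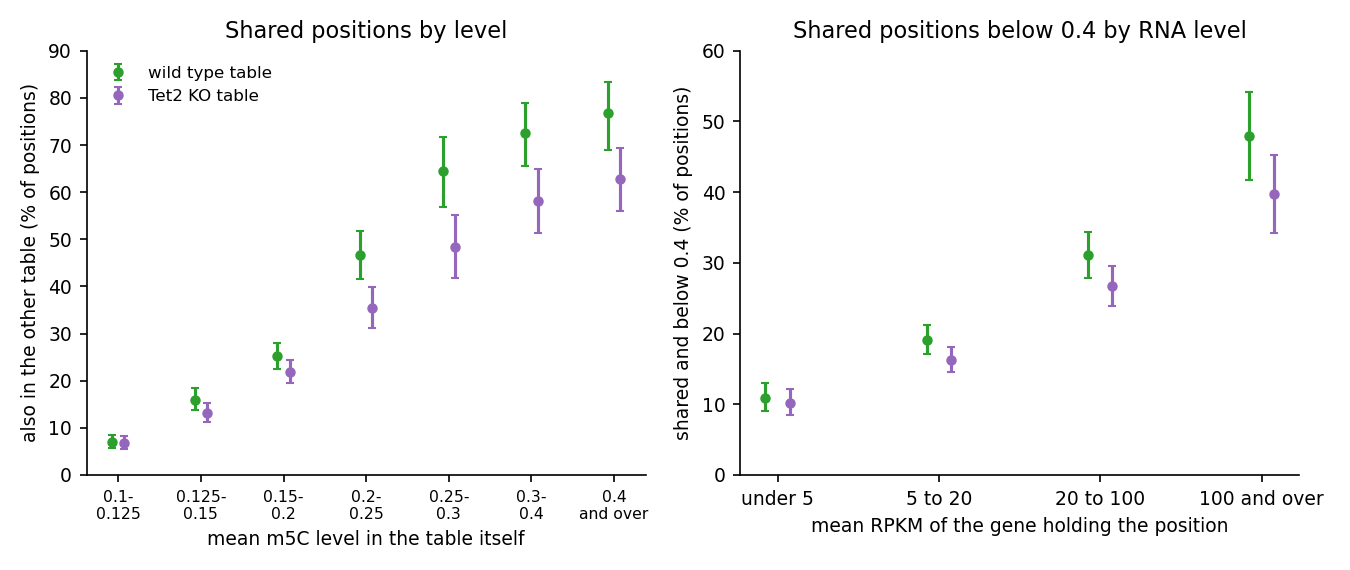
Left, percent of each table's positions that were also in the other table (y axis) by mean m5C level in the table itself (x axis). Right, percent that were shared and below 0.4 by mean RPKM of the gene. Points are shares with 95% exact binomial intervals over positions. Wild type shares run from 6.98% to 76.7% on the left and from 10.9% to 47.9% on the right.

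The 888 positions lay almost wholly in protein-coding genes, 846 of them (95.3%), beside 30 in pseudogenes, 2 in long noncoding RNA genes, 1 in Rpph1, the RNA of ribonuclease P, and 9 outside annotated genes. All listed positions gave a like share in protein-coding genes, 95.9%. Where the strand of the gene was known, 675 of 680 were on it (99.3%), against 99.4% of all listed. The gene table holds no exons, so exon, intron and UTR were not assigned.

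Along the gene span, 44.8% (41.0 to 48.6%) of 692 positions fell in the last 25% of the span and 27.6% in the first 25%. For all listed positions these shares were 45.7% and 26.1%. The intervals of the low shared positions held the value of all listed positions in each 25% of the span. Within 1000 bases of the gene end lay 22.4% (19.3 to 25.7%), against 18.4% (17.5 to 19.4%) of all listed positions. For the 104 other shared positions it was 26.9% (18.7 to 36.5%), so a higher share was not particular to the low ones. These gaps were not tested, since positions share genes. The median distance to the gene end was 4161 bases, against 5529 for all listed positions, and that to the gene start 8638 against 11898. The other shared positions had medians of 2985 and 7408 bases.

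**Figure D4:**
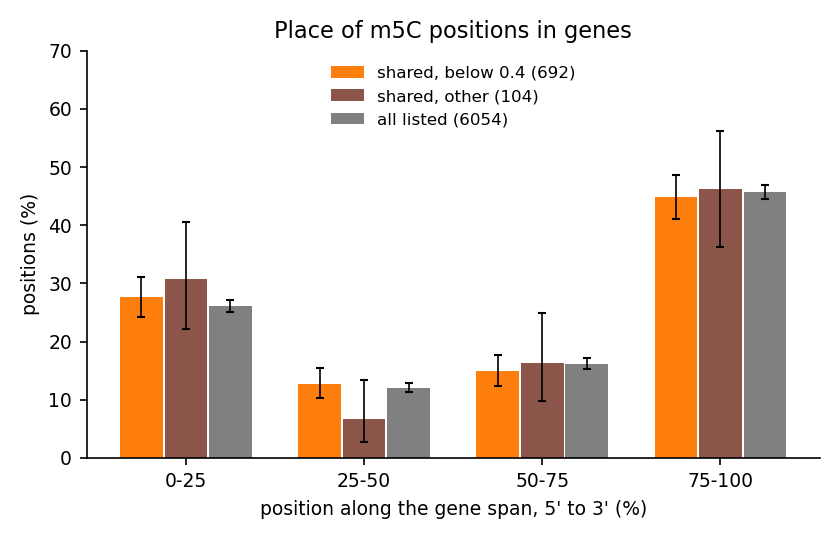
Percent of positions (y axis) in each 25% of the gene span from the 5′ to the 3′ end (x axis) for the low shared positions, the other shared positions and all listed positions, with 95% exact binomial intervals. The last 25% held 44.8% of 692 low shared positions and 45.7% of 6054 listed ones.

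Some of these positions had close neighbours. No other listed position on the same strand lay within 5 bases of any of the 888, next to 0.75% of all 7870 listed positions. A listed position lay within 10 bases of 5.74% of the 888 (4.68% of all listed), within 100 bases of 20.4% (15.8%) and within 1000 bases of 37.8% (30.2%). Of the 888, 22 had another of their own within 10 bases and 106 (11.9%) within 1000. In Hnrnpa0, an RNA-binding protein gene, neighbours 10 bases apart had levels of 0.213, 0.192, 0.183 and 0.185 at one and 0.14, 0.152, 0.157 and 0.173 at the other, in the order of the 2 wild type and 2 Tet2 KO libraries. Such neighbours can be read in the same fragments and are not independent.

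Outside annotated genes, 4 positions on the plus strand of chromosome 17, from 39844038 to 39846269, lay just before the annotated span of Rn18s-rs5 at 39846354 to 39848202, a locus with ribosomal RNA sequence that RefSeq marks as a pseudogene. The first had 0.392 and 0.37 in wild type, and 0.376 and 0.373 in the Tet2 KO libraries. The third, at 39845706, had 0.175 and 0.165 against 0.15 and 0.16. Rpph1 had 0.227 and 0.295 against 0.346 and 0.333. Among these, Rpph1 and the third position had genotypes that did not overlap, in opposite directions.

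Genes of pluripotency held 4 of the positions. Nanog, a core transcription factor of these cells, had 0.204 and 0.233 in the wild type libraries against 0.348 and 0.338 for Tet2 KO, at position 122713741 of chromosome 6. Trim28, a corepressor of retroelements, had 0.134 and 0.123 against 0.119 and 0.115. Klf4 and Esrrb, 2 more factors of naive pluripotency, had levels that overlapped. The Nanog pair in Tet2 KO stood 0.125 above wild type as a difference of means, and the replicates of each genotype were closer together than that.

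The methylation machinery held 8 positions in 4 genes. Tet1, a paralogue of Tet2, had 0.1 and 0.1 in wild type, next to 0.182 and 0.167 in Tet2 KO at position 62840064 of chromosome 10, where both wild type values sat at the listing floor. A second Tet1 position had 0.111 and 0.161 against 0.154 and 0.125. Dnmt3b, a de novo DNA methyltransferase, held 3 positions, of which the last, at 153687228 of chromosome 2, had 0.14 and 0.19 against 0.33 and 0.252 while the other two overlapped. The m5C reader gene Ybx1 held 2 positions, with means of 0.134 and 0.196 in wild type, and 0.121 and 0.153 in the Tet2 KO libraries, and Nop2, an m5C writer of ribosomal RNA, held 1 with 0.127 and 0.118. In all, 2 of the 8 lay above wild type and 0 below.

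Cytoplasmic ribosomal proteins held 20 positions in 17 genes, with medians of 0.198 in wild type and 0.182 in Tet2 KO. Tet2 KO lay above wild type at 4 and below at 4. Rpl10 had 0.13 and 0.123 against 0.183 and 0.192, and Rpl21 had 0.2 and 0.188 against 0.353 and 0.296. Rpl36 had 0.22 and 0.219 against 0.175 and 0.174. The Rpl36 replicates differed by far less than the genotypes did, and its direction was opposite to that of Rpl10.

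Translation factors held 13 positions in 10 genes, 3 above and 3 below. Eef2, the elongation factor that moves the ribosome along, held 3 positions, and at 2 of them Tet2 KO lay above wild type, as with 0.112 and 0.11 against 0.139 and 0.167. Eif4g1, the scaffold of the cap-binding complex, had 0.28 and 0.233 against 0.136 and 0.128. Eif4ebp1, a repressor of cap-dependent translation, had 0.281 and 0.267 against 0.306 and 0.34. No common direction ran through these genes.

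Oxidative phosphorylation genes held 13 positions in 12 genes, 2 above and 4 below, with a median difference of -0.01. Cox5a, a subunit of cytochrome c oxidase, had 0.25 and 0.25 in wild type against 0.1 and 0.122. Sdha, the catalytic subunit of succinate dehydrogenase, had 0.194 and 0.155 against 0.117 and 0.13. Cyc1, cytochrome c1, had 0.142 and 0.143 against 0.173 and 0.165 at one position and overlapped at the other. Uqcrfs1, the Rieske protein, kept 0.249, 0.248, 0.227 and 0.248, and no position was listed in a mitochondrially encoded gene.

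Both histone positions, in the variant genes H3f3a and H2aj, lay below wild type. H3f3a had 0.25 and 0.417 against 0.182 and 0.188, and H2aj had 0.324 and 0.144 against 0.119 and 0.112. The wild type replicates of each were farther apart than the genotype means. Splicing factor and hnRNP genes held 22 positions in 15 genes, 3 above and 3 below. Hnrnph1 had 0.199 and 0.206 against 0.25 and 0.252, and Hnrnpa2b1 had 0.203 and 0.168 against 0.118 and 0.157.

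Chaperones held 19 positions in 16 genes, 4 above and 3 below. Hsp90aa1 had 0.156 and 0.222 against 0.245 and 0.234, while its endoplasmic reticulum relative Hsp90b1 had 0.14 and 0.141 against 0.126 and 0.119. RNA helicases held 7 positions, 3 above and 1 below, and Ddx1 had 0.136 and 0.133 against 0.185 and 0.189. Solute carriers held 16 positions in 13 genes, 4 above and 1 below, with a median difference of 0.025 against 0.0005 over all 888. Slc25a36, a mitochondrial nucleotide carrier, had 0.182 and 0.167 against 0.316 and 0.367. None of these lists was tested, and their shares are read only beside the 19.4% and 15.5% of all shared positions.

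Smaller lists were mixed. Glycolysis held 5 positions, 1 above and 2 below, and Pfkp, a phosphofructokinase, had 0.12 and 0.2 against 0.386 and 0.271. The cytoskeletal list held 11, 2 above and 2 below. Actb, cytoplasmic actin, held one of each, with 0.117 and 0.124 against 0.13 and 0.13, and 0.124 and 0.125 against 0.108 and 0.107. Zfp genes held 11 positions (3 above, 1 below), replication genes 5 (0 and 0), tRNA synthetases 2 (1 and 0) and proteasome genes 2 (0 and 0). Of feeder markers, Fn1, Col1a1 and Col1a2 each held 1 position.

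Ascribed to 1 protein-coding gene and not known to lie on its opposite strand, 837 positions fell in 737 genes. The gene was known to run on the strand of the position at 692 of the 837. Of the genes, 651 held 1 position, 72 held 2 and 14 held 3. Spg7 held 3 within 45 bases at the gene start, with means of 0.283 in wild type and 0.17 in Tet2 KO over the 3. Ncl, which encodes nucleolin, had a lower Tet2 KO mean at each of its 3, with 2 not overlapping. Etv4 had 2 above wild type and 1 that overlapped with a lower mean. Bbc3, the apoptosis activator PUMA, had 1 of 3 below, and the 3 of Tsc22d1 overlapped. Positions of 1 gene thus did not always differ in one direction.

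RNA levels of the genes holding these positions were not used to choose them, so they were tested. RPKM loci were matched for 672 of the 737 genes, at 670 loci, of which 661 had a mean RPKM of at least 1. Their median level was 17.9 RPKM as the mean of the 6 libraries, against 7.79 for 3241 loci with only other listed positions and 4.75 for all 14864 loci. Over 759 positions, mean m5C level and RPKM had a Spearman's rho of -0.13, given as a description of positions that share genes and libraries. Nothing in the labels says that libraries came from separate cultures, and 1 library per genotype and time gives no spread between replicates. The p-values set the size of an effect against how far libraries lay from the fitted model. Such a model is a constant gap between genotypes or a straight line over the hours. That distance may be technical or a course over time that the model does not hold.

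No gene holding these positions passed the test for a difference in RNA level between genotypes. With time as a block, limma called 0 of 661 at an adjusted p under 0.05, against 0.00844% of all 11855 loci called higher and 0.0675% called lower in Tet2 KO. At an unadjusted p under 0.05 there were 57 of 661, against 1285 of all 11855 loci. The median difference, on the log2(RPKM + 1) scale, was 0.05, against 0.04 over all loci. Its sign rested on single libraries, since without the wild type 6 h library the median was -0.01, against -0.0035 over all loci. Where these results fall short of the threshold they do not show equal levels.

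Elmo2, an activator of Rac signalling whose promoter position is printed above, had the smallest p. Wild type cells had 6.46, 6.26 and 4.04 RPKM of it at 0, 3 and 6 h, against 14.6, 15.3 and 10.6 in Tet2 KO. Every Tet2 KO library lay above every wild type library (log2 difference 1.14, SE 0.19, limma adjusted p = 0.167), while its m5C levels overlapped.

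Anln, an actin-binding protein of cytokinesis, had 15.9, 19.0 and 13.3 RPKM against 35.0, 30.0 and 27.4 (0.91, SE 0.18, limma adjusted p = 0.251). Cox7a1, a cytochrome c oxidase subunit, had 19.0, 15.4 and 13.1 against 10.4, 6.86 and 7.74 (-0.85, SE 0.19, limma adjusted p = 0.296). Glipr2, the deacetylase gene Sirt1 and the splicing gene Snrnp70 had differences of 0.90, 0.72 and 0.88 with limma adjusted p between 0.251 and 0.316.

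The direction of the m5C gap was set beside the RNA difference. Genes with a position above wild type had a median RNA difference of -0.03 on the log2(RPKM + 1) scale (128 loci), those with a position below had 0.06 (119 loci), and those with overlapping levels had 0.06 (458 loci). Over 750 positions the m5C and RNA differences had a Spearman's rho of -0.07, a description with no test. Rps24 RNA was 1083, 1456 and 1122 RPKM over the 3 wild type times, next to 1051, 1118 and 1164 for Tet2 KO. Nanog RNA was 71.0, 56.0 and 37.2 against 72.0, 60.8 and 48.3 (0.17, SE 0.16, limma adjusted p = 0.729). At the first Rps24 position and at Nanog the m5C levels of the genotypes did not overlap. Compared hour by hour, Nanog RNA was higher in Tet2 KO at each time, and Rps24 RNA only at 6 h. Each of these RNA values rests on 1 library.

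During actinomycin D, 44 of 661 genes holding these positions fell and 0 rose, by the slope per hour over both genotypes at a limma adjusted p under 0.05. That is 6.66%, against 7.91% of all loci called falling and 0.118% called rising. RPKM is scaled within each library, so a slope is a change relative to other RNAs. The median slope was -0.03 per hour on the log2(RPKM + 1) scale, against -0.05 for all loci and -0.06 for the loci of other listed positions. With quantile normalization the medians were 0.02 for these genes and for all loci, so the direction of the median rests on the scaling. The 44 slopes ran from -0.68 to -0.16, and each of the 44 was lower at 3 h than at 0 h and lower at 6 h than at 3 h in both genotypes.

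Dusp6, the phosphatase that switches off ERK, fell most steeply, and went from 24.8 through 2.37 to 0.994 RPKM in wild type and from 39.3 through 1.81 to 0.878 in Tet2 KO (slope -0.68, SE 0.11, limma adjusted p = 0.0115). Socs3, an inhibitor of LIF and JAK-STAT signalling, went from 21.4 through 1.07 to 0.452 and from 17.4 through 1.69 to 0.502 (-0.63, SE 0.10, limma adjusted p = 0.0113). Epha2, an ephrin receptor, went from 49.0 to 4.04 and from 29.5 to 4.07 between 0 and 6 h.

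Atf4, a factor of the amino acid stress response, fell from 97.2 to 12.7 RPKM in wild type and from 92.2 to 16.5 in Tet2 KO (-0.44, SE 0.04, limma adjusted p = 0.00725). Mycn, a MYC family factor, fell from 28.4 to 3.17 and from 27.6 to 4.78. Klf4 fell from 6.06 to 0.476 and from 8.95 to 0.673. Mcl1, which blocks apoptosis, fell from 85.8 to 14.2 and from 82.4 to 18.4. Cdca4, Tab1, Riox1 and the loci counted with Ppp1r10 and with Ppan made up the 12 steepest.

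**Figure D5:**
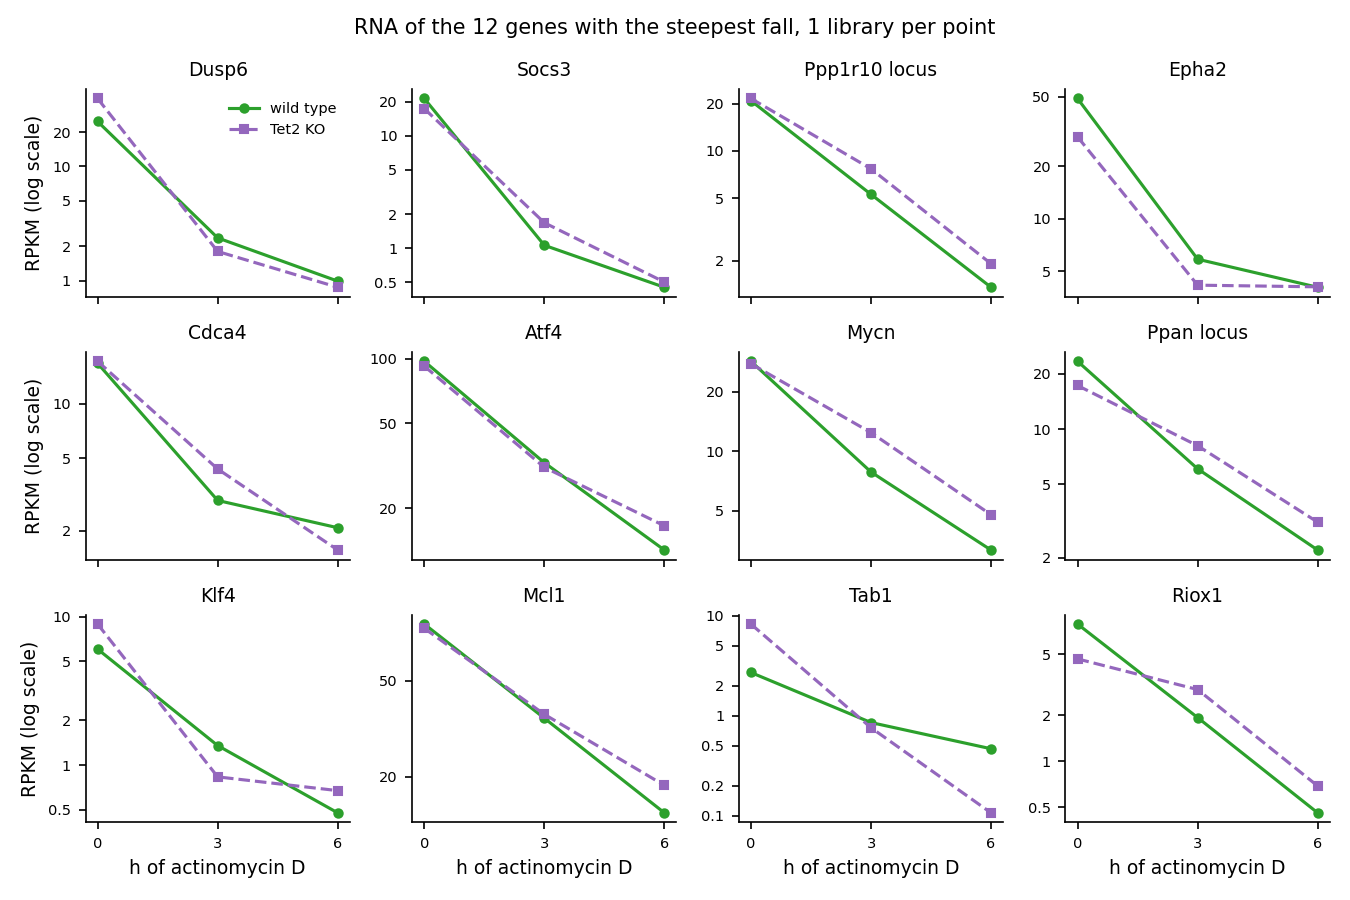
RPKM on a log axis against hours of actinomycin D for the 12 genes with the steepest called fall among those holding a low shared position. Circles and solid lines are wild type, squares and dashed lines Tet2 KO, 1 library per point with no error bar. Each line goes down at both steps, as for Atf4 from 97.2 to 12.7 RPKM in wild type.

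By list, and next to 7.91% called falling over all loci, the falls took in 1 of 4 tested pluripotency genes (Klf4), 1 of 11 of oxidative phosphorylation (Ndufa10), 2 of 12 solute carriers (Slc20a1 and Slc16a3) and 1 of 8 Zfp genes. The last was Zfp36l2, which binds AU-rich RNA elements. None passed among 17 ribosomal protein, 10 translation factor, 14 splicing, 16 chaperone or 9 cytoskeletal genes. Of the genes with 3 positions, Tsc22d1 fell, from 83.6 to 19.9 RPKM in wild type and from 65.01 to 28.8 in Tet2 KO (-0.26, SE 0.05, limma adjusted p = 0.0169). Genes with a position above wild type held 7 called falls of 128 (5.47%), those with one below 8 of 119 (6.72%), and those with overlapping levels 30 of 458 (6.55%), next to 7.91% of all loci, with loci of several positions counted in each class they belong to.

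The number of calls rested on single libraries. The calls over all loci moved with them. Without the wild type 6 h library there were 0, as over all loci. There were 8 without wild type 0 h (1.21%, against 0.953% of all loci), 12 without wild type 3 h (1.82% against 1.83%) and 11 without Tet2 KO 0 h (1.66% against 1.48%). Without Tet2 KO 6 h there were 29, with 2 rises (4.39% against 6.32%), and without Tet2 KO 3 h there were 58, with 1 rise (8.77% against 12.5%). With quantile normalization 6 passed (0.908% against 0.962%). The 44 slopes stayed below 0 in each of these. Leaving out 1 library could not change that sign, because each of the 44 fell at both steps in both genotypes.

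The fall of these RNAs was not shown to differ between genotypes. By the interaction of genotype and hour, limma called 0 of 661 at an adjusted p under 0.05, as of all loci, where 0% were called in each direction. At an unadjusted p under 0.05 there were 19 of 661, against 488 of all 11855 loci. The median slope difference was 0.04 per hour on the log2(RPKM + 1) scale, against 0.02 over all loci. Without the wild type 6 h library this median was -0.04, against -0.03 over all loci. Without single Tet2 KO libraries some passed, in both directions each time. There were 11 without 0 h (1.66%, against 2.47% of all loci), 7 without 3 h (1.06% against 1.49%) and 13 without 6 h (1.97% against 2.22%). Without any one wild type library there were 0, as over all loci.

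Fibp, a gene for an FGF-binding protein, had the smallest p, with 156, 49.1 and 36.1 RPKM over the 3 wild type times next to 12.7, 14.99 and 44.1 for Tet2 KO (slope difference 0.63, SE 0.12, limma adjusted p = 1). Mier2, a corepressor gene, had 17.4, 6.82 and 2.12 against 4.12, 3.05 and 8.20. Cotl1, an actin-binding protein, had 77.5, 10.8 and 10.1 against 8.14, 12.4 and 12.4. In these genes wild type was far above Tet2 KO at 0 h and below it at 6 h, with 1 library behind each value.

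In 2 of the next loci a single library stood out. The locus counted with Rpl21 had 308, 428 and 6382 RPKM over the wild type times, next to 317, 415 and 415 for Tet2 KO. The locus counted with Cct6a and Snora15, a small nucleolar RNA, had 212, 235 and 10790 against 438, 489 and 442. Both count several overlapping genes, so the high wild type 6 h values cannot be ascribed to the gene holding the position. Gtpbp1 completed the 6 of smallest p, with a slope difference of -0.38 (SE 0.10, limma adjusted p = 1).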

How the data were processed

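Per the file headers, the authors deposited bisulfite levels as a fraction per replicate, with chromosome, position and strand. Per the file headers, RNA values are the deposited RPKM of each locus. The wild type 0 h header reads PKM and was taken as RPKM. Per the submitters' processing notes, Trimmomatic with GRCm38 or mm10 was used for bisulfite reads, and Bowtie2 and Cufflinks were among the tools for RNA. Caller, listing rule and coverage, each of which could change a level, were not given in the sources used here.

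Positions were matched exactly. Genes came from RefSeq GRCm38.p6 by position, with strand from its promoter table. RNA was tested with limma 3.58.1 (R 4.3.3) on log2(RPKM + 1), which understates changes of low loci, for loci whose RPKM averaged at least 1, with mean trend and two-sided Benjamini-Hochberg adjustment over all loci. Models had 2 (genotype, time block), 3 (slope) and 2 (interaction) residual degrees of freedom. The code was tested on simulated data. Exact binomial intervals cover counting only. The positions, lists and tests were chosen with earlier results of these data known. Named were the 10 largest non-overlapping gaps each way, positions beside the limit, genes with most positions and list genes, and for RNA up to 12 calls, or the 6 smallest p. Some single-gene results that this rule names are left out.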

Additional observations from a re-analysis of the deposited data

How the results depend on the processing

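The number of positions was 709 with a limit of 0.3, 792 with each replicate under 0.4, and 861 to 878 when 1 bisulfite replicate was left out. The median difference was 0.004 with all 4 levels at least 0.15 and ran from -0.0035 to 0.0085 when 1 replicate was left out. With that floor, 63 positions lay above wild type and 41 below, of 319 positions. In the replicate block, which pairs libraries of the same number, the median stayed 0.0005, while 230 positions were higher and 223 lower in both pairs. A sign in both pairs is a looser rule than no overlap. Deviations of same-numbered libraries had a correlation of -0.0059, so the numbers were not taken as pairs. For RNA falls, quantile normalization gave 6 called loci, and leaving out 1 library gave 0 to 58. For the slope difference, leaving out 1 library gave 0 to 13 called loci. The genotype difference gave 0 in every alternative run. Of 81 alternative values, 69 stayed within the limits set. For an RNA median the limit was the standard deviation over the loci, so a change of sign could stay within it. The median slope did so with quantile normalization, from -0.03 to 0.02. The median genotype difference went from 0.05 to -0.01 without the wild type 6 h library, and likewise without the Tet2 KO 6 h library. The median slope difference went from 0.04 to -0.04 without the wild type 6 h library. For the 12 values outside the limits the cause was not tested. Unknown coverage limits each level.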
